A study of Mus musculus with 8 samples.

Results

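Primary epidermal cells of Dlx3 knockout pups were compared with those of Dlx3 wild-type pups, both after transduction with a control adenovirus. The comparison takes 4 of the 8 RNA-seq libraries of the series: the 2 labelled Dlx3KO with AdGFP and the 2 labelled Dlx3WT with AdGFP, paired by replicate number. Genes with at least 1 RPKM (reads per kilobase, normalised to the size of the library) in 2 or more of these 4 libraries were tested, 11235 of the 26202 genes in the table. In the study, cells of skin epidermis from newborn pups (postnatal day 0 to 1) were plated, and 24 hours later received either AdGFP, an adenovirus for green fluorescent protein, or AdDlx3, an adenovirus for Dlx3. Polyadenylated RNA was sequenced, with 2 libraries for each combination of genotype and virus. Every AdGFP culture, knockout or wild type, thus went through plating and adenoviral transduction; no culture without virus is used here. The labels call the pups transgenic; the allele, the part of Dlx3 removed, and any promoter or Cre line are not stated there. Nor do they say whether the 2 libraries of a group came from separate pups or cultures; the spread behind every p-value is that between libraries and may be technical.

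Dlx3 is a homeobox transcription factor of the Distal-less family. In mouse skin it is known to be made in the suprabasal layers of the epidermis and in the hair follicle, where it acts in the exit of keratinocytes from division and in their terminal differentiation. The basal layer holds dividing keratinocytes attached to the basement membrane by integrins, and cells that leave it express first the spinous and then the granular and cornified layer genes.

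The 4 libraries held between 87121603 and 124857742 deposited alignments, and the knockout libraries were the deeper ones (107719975 and 124857742, against 87121603 and 90990358 in wild type). Between 11011 and 11098 genes reached 1 RPKM in each. Krt5, a keratin of basal keratinocytes, was the most abundant gene in each, at 7922 and 6223 RPKM in knockout libraries, against 9244 and 7903 RPKM in wild-type libraries, which fits the epidermal label. Replicate 1 of both genotypes is batch A in the deposited sample sheet and replicate 2 is batch B; what the batches are is not given. Batch separated the libraries more than genotype did: the first principal component, with 75% of the variance, split replicate 1 from replicate 2, and the second, with 17.7%, split knockout from wild type. Log values of the paired libraries correlated across genes at 0.988 in pair 1 and 0.987 in pair 2, those of the knockout replicates at 0.951 and those of the wild-type replicates at 0.976.

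The wild-type AdGFP libraries stood apart in a further respect. Rn45s, the 45S precursor of ribosomal RNA, which carries no poly(A) tail of the messenger kind, took 0.107% and 0.0965% of the RPKM sum in knockout AdGFP, against 0.429% and 0.555% in wild-type AdGFP. In the 4 AdDlx3 libraries of both genotypes its share lay between 0.0838% and 0.139%. So 2 of the 8 libraries, both wild type with AdGFP, carried more of this RNA than the other 6, and every difference below uses those 2 libraries as the reference. Values from the AdDlx3 libraries, which are not used in the AdGFP comparison, are given beside the results for that reason. Whether the AdGFP and AdDlx3 libraries with one replicate number came from one culture is not stated.

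Dlx3 itself (chromosome 11, 95120117 to 95125296, GRCm38.p6) was measured at 0.656 and 0.558 RPKM in the knockout AdGFP libraries, against 1.71 and 1.77 RPKM in the wild-type AdGFP libraries. Both knockout libraries were below both wild-type libraries, and transcript reads were not absent from knockout cells. The level in wild-type cells was itself low. Dlx3 fell by 1.02 on the log2(RPKM + 0.5) scale, with a standard error of 0.16 and pair differences of -0.94 and -1.10 (limma adjusted p = 0.0209). All log2 differences below are knockout minus wild type on this scale, on which the change of a low gene comes out smaller than it was. With AdDlx3 the gene stood at 402 and 539 RPKM in knockout cells and 237 and 782 RPKM in wild-type cells, values that hold reads of the viral copy.

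Of the 11235 genes, 55 passed an adjusted p of 0.05 in limma with the replicate number as a block, 0.49% of those tested; 24 rose (0.214%) and 31 fell (0.276%) in knockout cells. At least a 2-fold difference was seen in 30 of the 55, or 0.267% of genes tested. The 55 calls rest on the pairing. Without the block the same 4 libraries gave 0 calls and 163 genes at an unadjusted p under 0.05 (1.45%), against 1421 (12.6%) with it. In the authors' deposited table, 0 of the 11235 genes had a q-value under 0.05 in this contrast and 293 had a p-value under 0.05. Over all genes of that table, those below the filter included, 30 had a q-value and 590 a p-value under 0.05. For a single gene, an exact two-sided permutation test of 2 libraries against 2 cannot go below p = 0.333, or 0.5 if genotypes are swapped within pairs only, and the calls come from variances shared over genes.

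Most differences were small. The median of all genes tested was -0.01, the quartiles were -0.14 and 0.14, and 1% of genes lay below -0.59 and 1% above 0.54. The pair differences correlated across genes at 0.28, a description over genes that are not independent of each other. The libraries of both genotypes did not overlap for 3096 genes (27.6%), and both pairs differed in the same direction for 6860 (61.1%), 3407 with knockout higher (30.3%) and 3453 with knockout lower (30.7%). Counts of list members below are to be read against these shares.

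**Figure D1:**
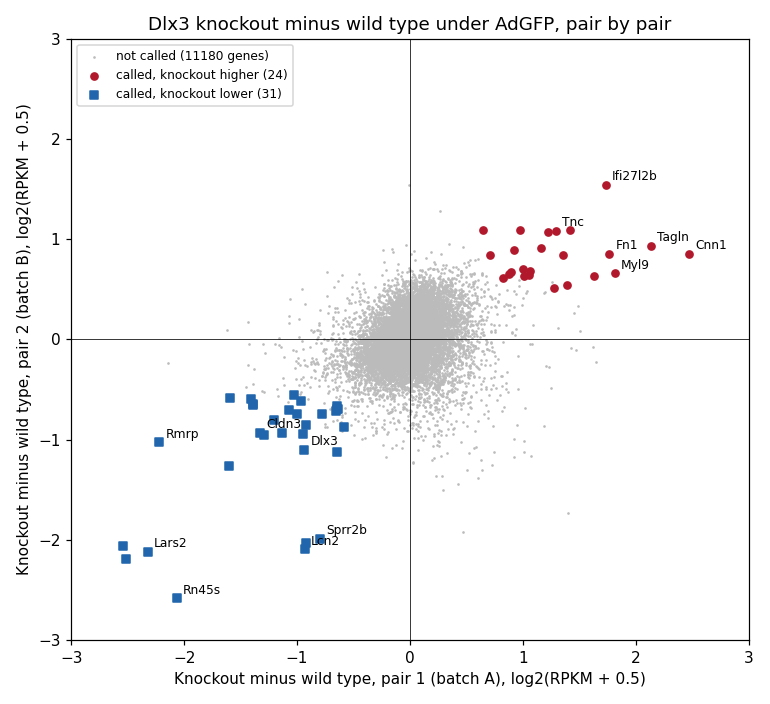
Knockout minus wild type in pair 1 (batch A, x axis) and pair 2 (batch B, y axis), each in log2(RPKM + 0.5), for the 11235 genes tested; red circles are the 24 called genes higher in knockout cells and blue squares the 31 lower, with some named. All called genes lie in the lower left or upper right, and Rn45s and Lars2 lie beyond -2 in both pairs, while Cnn1 and Tagln have larger differences in pair 1 than in pair 2.

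Of the 24 genes that rose in knockout cells, 8 belong to the contractile actin cytoskeleton. Smooth muscle actin and its binding proteins are known in stress fibres, the actin and myosin bundles by which cells pull on their matrix. Of 36 members tested of a list of actin cytoskeleton and contraction genes, a list written after values were seen, 8 rose and 0 fell; 29 were higher in both pairs and 2 lower in both, and the median was 0.36. Those described here are Tagln, Acta2, Cnn1, Myl9, Lmod1, Nexn and Fhl1.

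Tagln, which encodes the actin-binding protein transgelin (chromosome 9, 45929628 to 45936058), was at 355 and 512 RPKM in knockout libraries, against 80.4 and 268 RPKM in wild-type libraries. Acta2, smooth muscle alpha-actin (chromosome 19, 34240336 to 34255585), was at 262 and 258 RPKM in knockout libraries, against 84.3 and 166 RPKM in wild-type libraries. Cnn1, the actin-binding calponin 1 (chromosome 9, 22099221 to 22109221), was at 5.40 and 5.38 RPKM in knockout libraries, against 0.563 and 2.75 RPKM in wild-type libraries. For all 3 genes, both knockout libraries were above both wild-type libraries, and replicate 1 of wild type was the lowest library. The difference was 1.53 ± 0.23 for Tagln (limma adjusted p = 0.0182), 1.13 ± 0.20 for Acta2 (limma adjusted p = 0.0345) and 1.66 ± 0.28 for Cnn1 (limma adjusted p = 0.0254), errors being standard errors. It was larger in pair 1 than in pair 2 in each: 2.13 and 0.93 for Tagln, 1.63 and 0.63 for Acta2, and 2.47 and 0.85 for Cnn1. In a fit of all remaining libraries with 1 replicate block, leaving out wild-type replicate 1 gave 0.32 for Tagln, 0.49 for Acta2 and 0.81 for Cnn1. Leaving out wild-type replicate 2 gave 2.75, 1.77 and 2.52. That block is shared with the AdDlx3 libraries, where Tagln was lower in replicate 2. It was there at 107 and 43.4 RPKM in knockout libraries and 51.5 and 20.1 RPKM in wild-type libraries. The values with a library left out thus also carry the replicate difference under AdDlx3, which the pair differences above do not.

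Myl9, the regulatory light chain of non-muscle and smooth muscle myosin (chromosome 2, 156775408 to 156781657), was at 41.7 and 39.2 RPKM in knockout libraries, against 11.5 and 24.7 RPKM in wild-type libraries, a difference of 1.24 ± 0.21 (limma adjusted p = 0.0265). Nexn, the actin-filament protein nexilin, was at 6.48 and 7.60 RPKM in knockout libraries, against 2.50 and 3.35 RPKM in wild-type libraries, a difference of 1.15 ± 0.14 (limma adjusted p = 0.00574). Lmod1, the actin nucleator leiomodin 1, was at 1.42 and 2.51 RPKM in knockout libraries, against 0.358 and 1.10 RPKM in wild-type libraries, a difference of 1.04 ± 0.16 (limma adjusted p = 0.0209). These 3 did not overlap between genotypes, and Nexn differed by nearly the same amount in pair 1 (1.22) and pair 2 (1.07). Fhl1, a LIM-domain protein gene, was at 55.2 and 87.4 RPKM in knockout libraries, against 27.1 and 56.3 RPKM in wild-type libraries. It rose by 0.82 ± 0.14 (limma adjusted p = 0.0256), but wild-type replicate 2 was above knockout replicate 1, so the rise is seen within pairs.

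Genes of the extracellular matrix and of the response to the coactivators YAP and TAZ overlapped with that list. Of 20 tested, 6 rose and 0 fell, 14 were higher in both pairs and 3 lower in both, and the median was 0.38. Besides Tagln and Acta2 these were Tnc, Fn1, Ccn2 and Thbs1. Tnc, the matrix glycoprotein tenascin C of healing skin (chromosome 4, 63959785 to 64047015), was at 46.4 and 88.8 RPKM in knockout libraries, against 18.6 and 41.6 RPKM in wild-type libraries. It rose by 1.19 ± 0.13, with pair differences of 1.29 and 1.08 (limma adjusted p = 0.00215). Fn1, fibronectin (chromosome 1, 71585473 to 71653280), was at 126 and 209 RPKM in knockout libraries, against 36.7 and 115 RPKM in wild-type libraries, and rose by 1.31 ± 0.19 (limma adjusted p = 0.016). Ccn2, the connective tissue growth factor gene and a known YAP target, was at 158 and 198 RPKM in knockout libraries, against 75.6 and 124 RPKM in wild-type libraries, and rose by 0.87 ± 0.15 (limma adjusted p = 0.0254). Thbs1, thrombospondin 1, rose by 0.72 ± 0.14 (limma adjusted p = 0.047), at 92.3 and 177 RPKM in knockout libraries, against 51.9 and 115 RPKM in wild-type libraries, which overlapped. In each of these 4 genes replicate 2 was above replicate 1 in both genotypes. Without wild-type replicate 1, the fit with 1 block gave 0.42 for Tnc, 0.59 for Fn1 and 0.06 for Thbs1. Without wild-type replicate 2 it gave 1.95, 2.03 and 1.38. Under AdDlx3, which shares that block, replicate 2 was below replicate 1 in both genotypes for Tnc, Fn1 and Thbs1. Pair 2, which does not hold wild-type replicate 1, had 1.08 for Tnc, 0.85 for Fn1 and 0.62 for Thbs1.

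**Figure D2:**
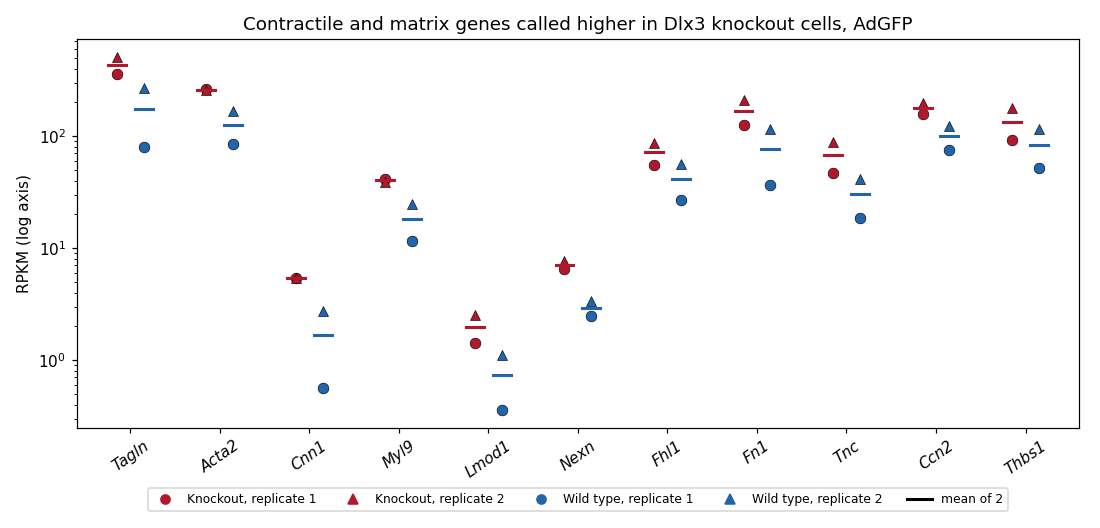
RPKM on a log axis in the 4 AdGFP libraries for 11 contractile and matrix genes called higher in knockout cells; red marks left are knockout, blue marks right wild type, circles replicate 1, triangles replicate 2, and bars the mean of 2. Both knockout marks are above both wild-type marks except in Fhl1 and Thbs1, and wild-type replicate 1 is the lowest library in all 11 genes.

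Stromal cells also make several of these genes, so markers of other cell types are given beside them. The 8 fibroblast markers tested gave 0 calls; 7 were higher in both pairs, with a median of 0.23. Summed over the whole fibroblast list they came to 65.9 and 54.3 RPKM in knockout libraries, against 45.2 and 42.5 RPKM in wild-type libraries. Thy1 was the largest single part of that sum, at 24.5 and 34.6 RPKM in knockout libraries and 10.5 and 25 RPKM in wild-type libraries (0.83 ± 0.17, limma adjusted p = 0.055). Col1a1, the main collagen of dermal fibroblasts, was at 8.91 and 4.29 RPKM in knockout libraries and 7.23 and 3.17 RPKM in wild-type libraries, and Lum and Pdgfra stayed under 0.28 RPKM in all 4. Pdgfrb, a marker of the cells around vessels, was at 0.733 and 0.42 RPKM in knockout libraries and 0.777 and 0.515 RPKM in wild-type libraries. Of 12 muscle markers 2 were tested, Tnni2 (0.20) and Mylpf (-0.08), and 0 were called. Below the filter, Des lay between 0.0732 and 0.1003 RPKM in all 4 libraries. Acta1 was at 1.11 and 0.509 RPKM in knockout libraries and 0.12 and 0.373 RPKM in wild-type libraries. Actc1 was at 0.396 and 0.561 RPKM in knockout libraries and 0.0958 and 0.221 RPKM in wild-type libraries. The part of these cells in the rise of contractile genes was not tested. In bulk RNA, more cells of a type and more RNA per cell cannot be told apart. Of 6 markers tested of a list for Merkel cells and simple epithelia, 0 were called and 6 were higher in both pairs, with a median of 0.51. The 6 were keratin and uroplakin genes, Krt7, Krt8, Krt18, Krt19, Upk1b and Upk3bl. Krt20, Upk2 and the Merkel cell genes Atoh1, Isl1 and Sox2 were below the filter. Of these, Sox2 and Upk2 were lower in both pairs, and for Krt20, Atoh1 and Isl1 the pairs pointed apart. Krt8, a simple epithelial keratin, was at 5.92 and 16.9 RPKM in knockout libraries and 3.89 and 10.6 RPKM in wild-type libraries (0.60 ± 0.14, limma adjusted p = 0.0963).

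A CArG box, the sequence bound by serum response factor, lies in known promoters of smooth muscle genes. The search was for CC, then 6 letters that are each A or T, then GG, on both strands of the 250 bases before RefSeq starts. It occurred in 129 of 11392 promoters of tested genes (1.13%) and in 2 of the 39 promoters found for called genes, which cover 32 of the 55 genes. Those were Myl9 and 1 of the promoters of Fhl1, both among the risen contractile genes. They are shown as the only genes with this motif among the 32 called genes searched. No promoter was available for the other called genes, Tagln among them. Each is given with 35 bases on either side (RefSeq, GRCm38.p6, plus strand) and the CArG box in capitals. The box begins 161 bases before the Myl9 start at 156775464 (chr2:156775268-156775347), which lies inside the span given above for the whole gene, and 102 before the Fhl1 start at 56779683 (chrX:56779546-56779625); the Fhl1 stretch lies between exons of other Fhl1 transcripts in the GENCODE annotation.
Myl9: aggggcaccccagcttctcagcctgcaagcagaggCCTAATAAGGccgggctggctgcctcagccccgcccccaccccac
Fhl1: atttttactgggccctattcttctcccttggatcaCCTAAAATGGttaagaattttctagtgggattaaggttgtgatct
A match of letters shows no binding. The homeodomain core TAATTA, which reads the same on both strands, was in 253 of the 11392 promoters (2.22%) and in 0 of the 39. The related TAATTG was in 469 (4.12%) and in 5 of the 39, those of Tnc, which rose, and Lars2, Lcn2, Slc6a9 and Sprr2b, which fell. GGAATG, the core letters of TEAD sites, was in 1220 (10.7%) and in 4 of the 39: Acta2, Lmod1 and Cd200, which rose, and H4c8, which fell.

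The other risen genes named by the rule were of mixed roles. Ifi27l2b, of a family of interferon-inducible mitochondrial proteins (chromosome 12, 103450898 to 103457223), was at 1.55 and 1.78 RPKM in knockout libraries, against 0.115 and 0.282 RPKM in wild-type libraries. It rose by 1.64 ± 0.17, and by a like amount in pair 1 (1.74) and pair 2 (1.54) (limma adjusted p = 0.00128). Of 20 interferon genes in a list that does not hold it, 0 were called, and their median was 0.39 in pair 1 and -0.40 in pair 2. Gpr149, an orphan receptor gene (chromosome 3, 62529430 to 62605440), was at 4.32 RPKM in both knockout libraries, against 1.30 and 1.76 RPKM in wild-type libraries, and rose by 1.26 ± 0.16 (limma adjusted p = 0.00574). Both genes were clear of overlap, with each knockout library above each wild-type library.

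Dkk3, a secreted member of the Dickkopf family of Wnt modulators, was at 39.6 and 42.3 RPKM in knockout libraries, against 21.0 and 26.4 RPKM in wild-type libraries, and rose by 0.79 ± 0.13 (limma adjusted p = 0.0252). It was the 1 gene called of 26 in the Wnt list, where the median was -0.05.

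Cd200, a membrane glycoprotein gene, was at 12.3 and 9.37 RPKM in knockout libraries, against 6.23 and 4.82 RPKM in wild-type libraries, and rose by 0.91 ± 0.14 (limma adjusted p = 0.0182). Vwa1, a basement membrane protein gene, rose by 0.90 ± 0.17 (limma adjusted p = 0.0479), and Ptprz1, a receptor tyrosine phosphatase gene, by 0.87 ± 0.15 (limma adjusted p = 0.0337). The remaining risen genes, outside the naming rule, included Kcnf1, Wfdc2, Lgals9, Msrb3 and Akap12, with differences of 1.10, 0.97, 0.85, 0.85 and 0.78. Of these 5, Msrb3 alone had libraries that did not overlap.

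The largest falls were in RNA of the ribosomal RNA class. Of 6 members tested of a list of ribosomal and other non-polyadenylated RNA, written after values were seen, 5 fell and 6 were lower in both pairs, with a median of -2.26. Rn45s was at 424 and 355 RPKM in knockout libraries, against 1774 and 2130 RPKM in wild-type libraries. Lars2, the mitochondrial leucyl-tRNA synthetase gene, whose mouse locus (chromosome 9, 123366927 to 123462675) is known to hold ribosomal RNA-like sequence, was at 55.8 and 49.9 RPKM in knockout libraries, against 282 and 219 RPKM in wild-type libraries. The differences were -2.32 ± 0.19 for Rn45s (limma adjusted p = 0.000158) and -2.22 ± 0.14 for Lars2 (limma adjusted p = 1.23e-05). Mir6240, at 37.4 and 30.8 RPKM in knockout libraries and 216 and 143 RPKM in wild-type libraries, fell by 2.35 (limma adjusted p = 1.23e-05). Mir6236, at 80.9 and 87.0 RPKM in knockout libraries and 473 and 366 RPKM in wild-type libraries, fell by 2.30 (limma adjusted p = 2.47e-05). In all 4, the knockout libraries were far below the wild-type libraries. Rmrp, the RNA of the RNase MRP complex, fell by 1.62 ± 0.23 (limma adjusted p = 0.015) with overlapping libraries, at 2.35 and 0.772 RPKM in knockout cells and 12.8 and 2.09 RPKM in wild-type cells. Reads that match repeated ribosomal sequence can be split among these loci by the counting, so they are not separate measurements.

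With Mir5130 and Mir8098, 4 microRNA loci were among the fallen genes. Mir5130 fell by 1.44 (limma adjusted p = 0.005) and Mir8098 by 1.12 (limma adjusted p = 0.0201), both near 0 RPKM in knockout replicate 1, so the size of these falls depends on the added 0.5. Libraries of polyadenylated RNA do not measure mature microRNAs, and the values are reads over the loci. The mature sequences (RefSeq, GRCm38.p6) are shown to tell the 4 loci apart; the seed, bases 2 to 8, is in capitals, and no seed is shared.
mmu-miR-6236: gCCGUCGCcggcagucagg
mmu-miR-6240: cCAAAGCAucgcgaaggcccacggcg
mmu-miR-5130: cUGGAGCGcgcgggcgaggcaggc
mmu-miR-8098: gCUAUGGUcgcuggcucccaa
With AdDlx3 these RNAs did not follow the AdGFP pattern. The difference of knockout from wild type was then 0.01 for Rn45s, -0.11 for Lars2, -0.16 for Mir6240 and 0.09 for Mir6236. It was 1.32 for Mir5130 and 1.18 for Mir8098, with knockout higher.

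Among replication-dependent histone genes, whose messages end in a stem-loop and not in a poly(A) tail, 3 fell in knockout cells. Of 26 tested, 3 fell and 0 rose, 23 were lower in both pairs and 1 higher in both, with a median of -0.52; this list too was written after values were seen. H4c8 was at 0.283 and 0.849 RPKM in knockout libraries, against 1.56 and 1.62 RPKM in wild-type libraries. H4c4 was at 0.291 and 0.859 RPKM in knockout libraries, against 1.03 and 2.12 RPKM in wild-type libraries. H2ac10 was at 0.426 and 1.02 RPKM in knockout libraries, against 1.26 and 2.25 RPKM in wild-type libraries. None of these 3 overlapped between genotypes, and H4c8, H4c4 and H2ac10 fell by 1.02, 0.95 and 0.89 (limma adjusted p = 0.0482, 0.0274 and 0.0364). Near-identical histone copies share reads, so single members are uncertain. Genes of DNA replication and the G1/S step, which cycle with histones, had 0 calls of 30 and a median of 0.02, and mitosis genes 0 calls of 26 and a median of 0.18. With AdDlx3 the histone median was 0.05. Histone and ribosomal RNA were both higher in the wild-type AdGFP libraries that stood apart, and the part of what set those libraries apart in the histone difference was not tested.

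Genes of the cornified layers were lower in part. Lor, loricrin, the main protein of the mouse cornified envelope (chromosome 3, 92080271 to 92083142), was at 3.38 and 3.95 RPKM in knockout libraries, against 9.65 and 6.45 RPKM in wild-type libraries. Both knockout libraries were below both wild-type libraries. Lor fell by 1.02 ± 0.18 (limma adjusted p = 0.0302), and was the 1 gene called of 22 granular and cornified layer genes tested, of which 9 were lower and 1 higher in both pairs, with a median of -0.16. Cnfn, Spink5 and Cdsn followed it by p, at -0.64, -0.60 and -0.57, and did not pass (limma adjusted p = 0.102, 0.108 and 0.189).

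The small proline-rich genes, cross-linked components of the cornified envelope encoded side by side on chromosome 3, were the more uniform list. Of 14 tested 1 fell, 13 were lower in both pairs and 0 higher in both, with medians of -0.22 in pair 1, -0.70 in pair 2 and -0.46 overall. Sprr2b (92316705 to 92318085) was at 15 and 2.08 RPKM in knockout libraries, against 26.4 and 9.78 RPKM in wild-type libraries. Replicate 2 was far below replicate 1 in both genotypes, so the libraries overlapped while each pair differed in the same direction (-0.80 and -1.99). The fall was 1.39 ± 0.22 (limma adjusted p = 0.0209). Sprr1b was next at -0.73 (limma adjusted p = 0.0572). Sprr2 genes resemble each other closely, and counting can split reads among them. Late cornified envelope genes had 0 calls of 14 and a median of -0.22, and 7 were lower in both pairs. Lce1e had the smallest p of these, at 0.58 and 0.779 RPKM in knockout libraries and 1.84 and 1.25 RPKM in wild-type libraries (-0.78 ± 0.19, limma adjusted p = 0.113).

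No gene of the earlier layers was called. Basal keratinocyte genes had 0 calls of 20 and a median of 0.23, with 11 higher and 4 lower in both pairs (30.3% and 30.7% of all genes). The integrin genes Itgb1 and Itga6 anchor basal cells. Itgb1 was at 202 and 253 RPKM in knockout libraries and 152 and 153 RPKM in wild-type libraries, and Itga6 at 96.3 and 112 RPKM in knockout libraries and 74.0 and 69.9 RPKM in wild-type libraries. Their differences of 0.57 and 0.52 did not pass (limma adjusted p = 0.139 and 0.14). The basal keratins Krt5 and Krt14 were among the 4 lower in both pairs. Krt14 was at 6336 and 4075 RPKM in knockout libraries and 7065 and 5580 RPKM in wild-type libraries. Spinous layer genes had 0 calls of 17, and their pair medians pointed apart, 0.25 in pair 1 and -0.51 in pair 2. Krt1, the spinous keratin, showed this most plainly, with 212 and 6.87 RPKM in knockout libraries and 79.9 and 24.0 RPKM in wild-type libraries: knockout was the higher genotype in batch A and the lower in batch B.

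Among 30 transcription factors of epidermal differentiation, 1 fell and 0 rose, 10 were lower and 1 higher in both pairs, and the median was -0.27, made of 0.03 in pair 1 and -0.59 in pair 2. The gene that fell was Cebpb, which encodes C/EBP beta, a regulator of keratinocyte differentiation (chromosome 2, 167688915 to 167690432). It was at 41.4 and 36.4 RPKM in knockout libraries, against 71.4 and 61.3 RPKM in wild-type libraries, with no overlap and pair differences of -0.78 and -0.74 (-0.76 ± 0.13, limma adjusted p = 0.0254). Its relative Cebpd was at 10.5 and 11.4 RPKM in knockout libraries and 17.0 and 18.2 RPKM in wild-type libraries, also without overlap, and lay just outside the threshold (-0.66 ± 0.13, limma adjusted p = 0.0522). Cebpa had -0.57 ± 0.15 (limma adjusted p = 0.136). AP-1 genes had 0 calls of 9 and a median of -0.28, with Jund at -0.59 (limma adjusted p = 0.0872). The Dlx and Msx relatives were mostly too low to test: 3 of 9 passed the filter, Dlx5 at -0.54, Dlx2 at -0.15 and Msx2 at -0.09, with 0 called. Of 33 hair follicle genes 11 could be tested and 0 were called.

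Cldn3, a tight junction claudin gene (chromosome 5, 134986214 to 134987476), was at 4.78 and 4.31 RPKM in knockout libraries, against 12.7 and 8.68 RPKM in wild-type libraries, and fell by 1.13 ± 0.15 (limma adjusted p = 0.00821). It was the 1 gene called of 16 claudin, connexin and junction genes, whose median was 0.08. Cldn4, the claudin with the next smallest p, was at 248 and 227 RPKM in knockout libraries and 367 and 323 RPKM in wild-type libraries (-0.54 ± 0.15, limma adjusted p = 0.164).

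Several secreted antimicrobial and acute phase genes fell. Of 13 tested of a list written after values were seen, 4 fell and 0 rose, 9 were lower and 2 higher in both pairs, and the median was -0.37. Lcn2, the iron-sequestering lipocalin 2 (chromosome 2, 32384637 to 32387739), was at 2.53 and 0.865 RPKM in knockout libraries, against 5.27 and 5.34 RPKM in wild-type libraries. Saa3, serum amyloid A3 (chromosome 7, 46711998 to 46719615), was at 1.97 and 0.647 RPKM in knockout libraries, against 4.18 and 4.19 RPKM in wild-type libraries. The wild-type libraries of both genes were nearly equal, and the knockout libraries were lower, most of all replicate 2. Lcn2 fell by 1.51 ± 0.23 and Saa3 by 1.48 ± 0.22 (limma adjusted p = 0.0182 for both).

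Slpi, the secretory leukocyte protease inhibitor, was at 28.1 and 17.9 RPKM in knockout libraries, against 44.2 and 39.7 RPKM in wild-type libraries, and fell by 0.88 ± 0.14 (limma adjusted p = 0.0238). Lyz2, lysozyme 2, was at 0.249 and 0.396 RPKM in knockout libraries, against 1.14 and 1.21 RPKM in wild-type libraries, and fell by 1.03 ± 0.17 (limma adjusted p = 0.0238). Lyz2 is also a marker of macrophages and neutrophils. Of 18 immune markers 3 could be tested, Lyz2 being the 1 called. Cd68 and H2-Ab1, also tested, had differences of 0.20 and 0.07, each higher in pair 1 and lower in pair 2. The pan-leukocyte gene Ptprc was at or under 0.0148 RPKM in all 4 libraries, and Cd3g, Cd207 and Mcpt4 were listed at 0. Tyrobp, of myeloid cells, was at 0.0194 and 0.0707 RPKM in knockout libraries and 0.0733 and 0.172 RPKM in wild-type libraries. Fcer1g, Mpeg1 and Csf1r, also of myeloid cells, were lower in both pairs as well. Fcer1g was at 0 and 0.0461 RPKM in knockout libraries and 0.149 and 0.192 RPKM in wild-type libraries. Csf1r was at 0.0918 and 0.0652 RPKM in knockout libraries and 0.162 and 0.163 RPKM in wild-type libraries. Aif1 was higher in pair 1 and lower in pair 2. All were below the filter and were not tested. In the inflammation list 3 of 21 fell, Lcn2, Saa3 and the chemokine gene Ccl2 (-0.73 ± 0.14, limma adjusted p = 0.0453), and the median was -0.02. Without wild-type replicate 2, the fit with 1 block for both viruses gave -0.22 for Slpi and 0.36 for Ccl2. Pair 1, which does not hold that library, had -0.65 for Slpi and -0.58 for Ccl2. Csf3 had a difference of 0.91 ± 0.18 the other way (limma adjusted p = 0.0522). The collagenase gene Mmp13 fell by 1.09 ± 0.21 (limma adjusted p = 0.0482) with overlapping libraries. It was at 3.22 and 1.65 RPKM in knockout libraries, against 10.7 and 2.72 RPKM in wild-type libraries, with pair differences of -1.59 and -0.58.

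The integrated stress response, by which cells short of amino acids or with unfolded protein slow translation and induce ATF4 targets, had 2 fallen genes in knockout cells, Trib3 and Chac1. All 22 genes of its list were tested; 2 fell, 0 rose, 22 had a difference below 0 and 21 were lower in both pairs, with a median of -0.48 (-0.65 in pair 1 and -0.25 in pair 2). Trib3, a pseudokinase gene induced by ATF4 and CHOP, was at 44.6 and 26.9 RPKM in knockout libraries, against 87.5 and 41.5 RPKM in wild-type libraries. Chac1, which degrades glutathione, was at 33.8 and 16.6 RPKM in knockout libraries, against 52.9 and 27.3 RPKM in wild-type libraries. Replicate 2 was the lower library in both genotypes, and knockout was lower within each pair. Trib3 fell by 0.79 ± 0.14 and Chac1 by 0.67 ± 0.13 (limma adjusted p = 0.0287 and 0.0479). Ddit4 and Stc2 had differences of -0.72 and -0.76 that did not pass (limma adjusted p = 0.0521 and 0.0872). The summed level of the list was 1449 and 1216 RPKM in knockout libraries and 2291 and 1482 RPKM in wild-type libraries, and wild-type replicate 1 was the highest.

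Bbc3, which encodes the pro-apoptotic protein PUMA (chromosome 7, 16308398 to 16318334), was at 4.36 and 5.88 RPKM in knockout libraries, against 12.4 and 9.14 RPKM in wild-type libraries, and fell by 1.0 ± 0.18 (limma adjusted p = 0.0364). It was the 1 gene called of 29 p53 targets, with a list median of -0.10. Metallothionein genes, which bind zinc and copper, lay near the threshold: Mt2 was at 347 and 265 RPKM in knockout libraries and 586 and 476 RPKM in wild-type libraries (-0.80 ± 0.16, limma adjusted p = 0.0518). Cytoplasmic ribosomal protein genes had 0 calls of 81, yet 76 were below 0 and 68 lower in both pairs (30.7% of all genes), with a median of -0.25. Their summed level was 51436 and 53436 RPKM in knockout libraries and 67928 and 60596 RPKM in wild-type libraries. Sterol and fatty acid synthesis genes ran the other way, with 0 calls of 27, 16 higher and 1 lower in both pairs and a median of 0.19.

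The pigment cell genes Pmel and Mlana fell in knockout cultures. Of 12 melanocyte markers tested 2 fell and all 12 were lower in both pairs, with a median of -0.41. Pmel, which forms the fibrils of the melanosome (chromosome 10, 128695888 to 128720238), was at 79.2 and 60.3 RPKM in knockout libraries, against 125 and 99.6 RPKM in wild-type libraries. Mlana, the melanosomal antigen Melan-A (chromosome 19, 29697541 to 29708447), was at 23.1 and 23.2 RPKM in knockout libraries, against 36.3 and 37.1 RPKM in wild-type libraries. Neither overlapped. Pmel fell by 0.69 ± 0.13 and Mlana by 0.66 ± 0.13 (limma adjusted p = 0.0484 and 0.0497). Summed over the 13 markers, the level was 283 and 231 RPKM in knockout libraries, against 399 and 334 RPKM in wild-type libraries. Whether knockout cultures held fewer melanocytes or less of this RNA per melanocyte cannot be told apart here.

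**Figure D3:**
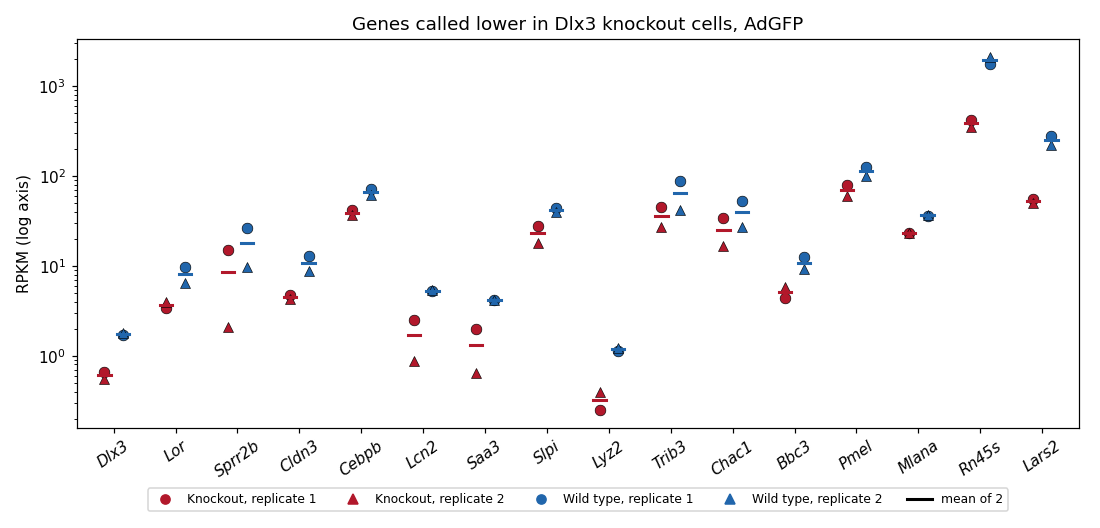
RPKM on a log axis in the 4 AdGFP libraries for 16 genes called lower in knockout cells; red marks left are knockout, blue marks right wild type, circles replicate 1, triangles replicate 2, and bars the mean of 2. Both knockout marks are below both wild-type marks except in Sprr2b, Trib3 and Chac1, where replicate 2 is the lower library in both genotypes.

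The fallen genes outside the naming rule, listed to complete the 31, were Mir8098, Slc6a9, Artn, Scand1, Ypel3 and 1 predicted gene model. Slc6a9, a glycine transporter gene, had a difference of -0.89, Artn, a ligand of the GDNF family, -0.87, Scand1 -0.79 and Ypel3 -0.67. In all, 15 of the 55 called genes had libraries that overlapped between genotypes. Transcripts of both sexes were in every library. The Y-linked gene Eif2s3y was at 8.95 and 5.77 RPKM in knockout libraries and 8.42 and 7.56 RPKM in wild-type libraries, and Xist at 16.4 and 30.4 RPKM in knockout libraries and 13.6 and 12.3 RPKM in wild-type libraries (0.77 ± 0.20, limma adjusted p = 0.132).

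Genes near the targeted locus were looked at on their own, since a targeted allele can carry linked sequence of its founder strain. Within 2 Mb of Dlx3 RefSeq lists 150 genes, of which 102 were in the table and 53 were tested; 0 were called. Both pairs were lower for 25 and higher for 6 (30.7% and 30.3% of all genes), with a median of -0.10. Hoxb3os had the largest difference in size, -0.69 (limma adjusted p = 0.12). Sp6, a factor of epidermal and tooth development, had -0.29 (limma adjusted p = 0.426).

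**Figure D4:**
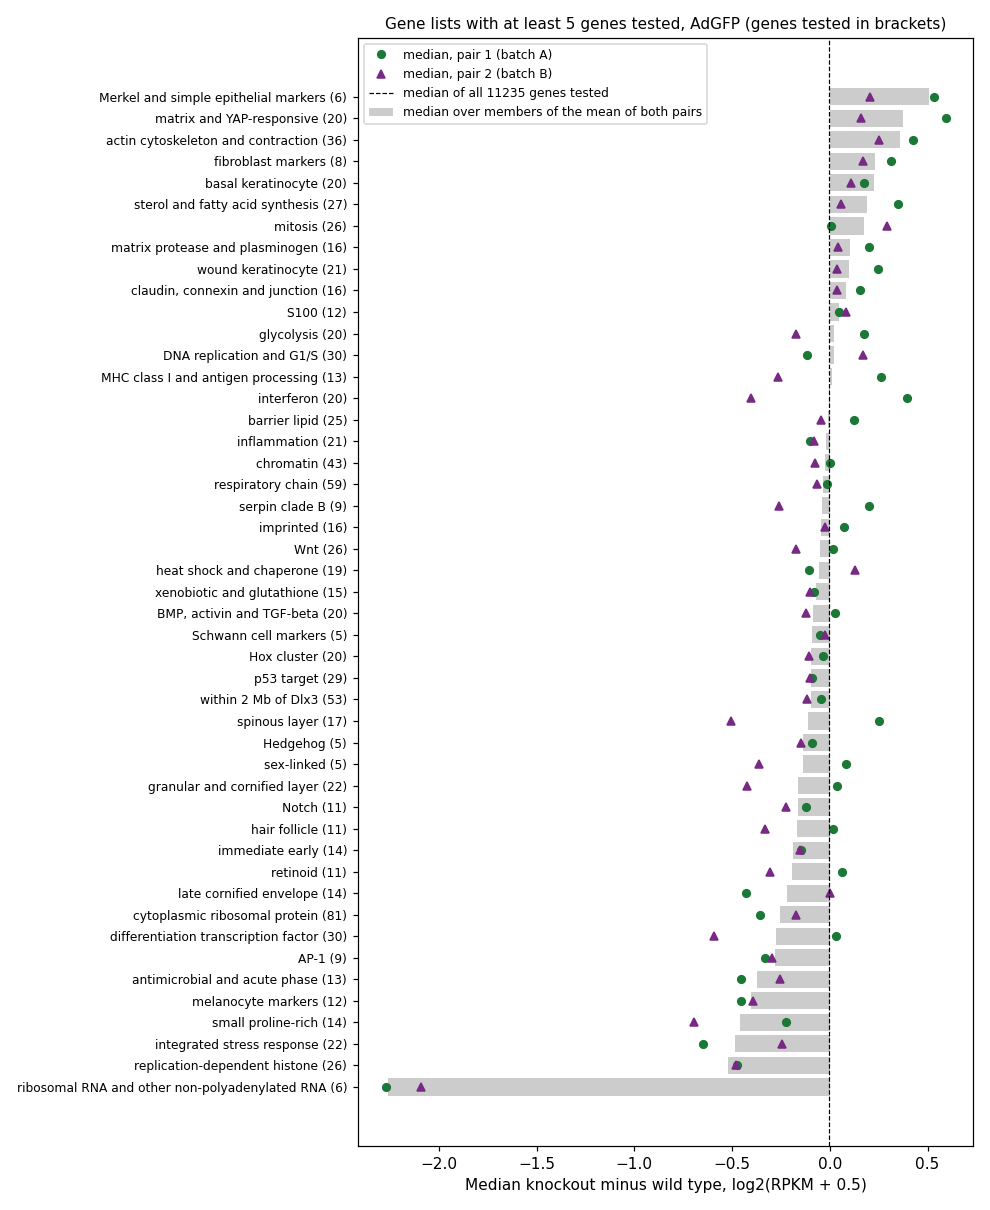
Median knockout minus wild type difference of each gene list with at least 5 genes tested, in log2(RPKM + 0.5); bars are the median over members of the mean of both pairs, green circles the median in pair 1 and purple triangles that in pair 2, and the dashed line the median of all 11235 genes. The lists at both ends run from -2.26 for ribosomal RNA to 0.51 for the Merkel and simple epithelial list. Both have their pairs on one side, and the latter holds only keratin and uroplakin genes here. Interferon and spinous layer lists have their pairs on opposite sides.

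The AdDlx3 libraries gave a look at the same genotypes in libraries that the AdGFP comparison did not use. Both genotypes received the viral copy of Dlx3 there. Whether those libraries share cultures with the AdGFP libraries is not stated, so agreement between the viruses may not be independent. There, knockout against wild type gave 0 calls in limma over all 8 libraries with a replicate block for each virus. At an unadjusted p under 0.05 it gave 643 genes (5.72%). In that same fit the AdGFP difference gave 5 calls, and 1770 genes at an unadjusted p under 0.05. The 0 calls are to be read against those 5, since the 55 come from the fit of the 4 AdGFP libraries alone. Of the 55 genes called under AdGFP, 45 (81.8%) had a mean difference of the same sign under AdDlx3, against 47.6% of all genes tested. Both AdDlx3 pairs had that sign for 36 (65.5%), against 26.5% of all genes. The differences were smaller under AdDlx3 for 47 of the 55: taken in the AdGFP direction, their median was 0.41, against a median size of 1.02 under AdGFP, where the genes were selected for size.

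Contractile genes had differences of the same sign there, none of them called. Myl9 was at 94.1 and 130 RPKM in knockout AdDlx3 libraries, against 19 and 74.8 RPKM in wild-type AdDlx3 libraries, a difference of 1.54. Acta2 was at 131 and 80.2 RPKM in knockout AdDlx3 libraries, against 48.9 and 43.2 RPKM in wild-type AdDlx3 libraries, a difference of 1.15. Tagln had 1.07 and Cnn1 1.26. The median of the actin cytoskeleton and contraction list was 0.32, and 35 of 36 members were above 0.

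Pigment and stress response genes also had the same sign. All 12 melanocyte markers and all 22 integrated stress response genes were below 0 under AdDlx3, with medians of -0.74 and -0.35. Pmel was at 62.0 and 39.6 RPKM in knockout AdDlx3 libraries, against 129 and 83.7 RPKM in wild-type AdDlx3 libraries (-1.06, limma adjusted p = 0.0503). Ifi27l2b was at 3.03 and 7.09 RPKM in knockout AdDlx3 libraries, against 0.348 and 1.94 RPKM in wild-type AdDlx3 libraries (1.85, limma adjusted p = 0.0503). These 2 genes had the smallest adjusted p there among the 55, just short of the threshold. The ribosomal protein median was -0.18, with 80 of 81 members below 0.

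Other genes differed under AdGFP and hardly under AdDlx3. Cebpb was at 26.4 and 32.1 RPKM in knockout AdDlx3 libraries and 31.8 and 27.0 RPKM in wild-type AdDlx3 libraries, a difference of -0.01. Cd200 had 0.04, and the medians of the ribosomal RNA and histone lists were both 0.05. The test of the difference between the genotype effects under AdGFP and under AdDlx3 gave 0 genes at an adjusted p under 0.05 in limma. It gave 1019 at an unadjusted p under 0.05 (9.07%), of which 27 were among the 55. The 55 were selected on the AdGFP difference, which is part of what is tested here, so those 27 cannot be read against the 9.07%. The smallest adjusted p was 0.0798, for Mir6240, Lars2 and Mir6236. For Cebpb the difference between the viruses was -0.75 ± 0.19 (limma adjusted p = 0.547), so a genotype effect that depends on the virus was not shown for any single gene.

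**Figure D5:**
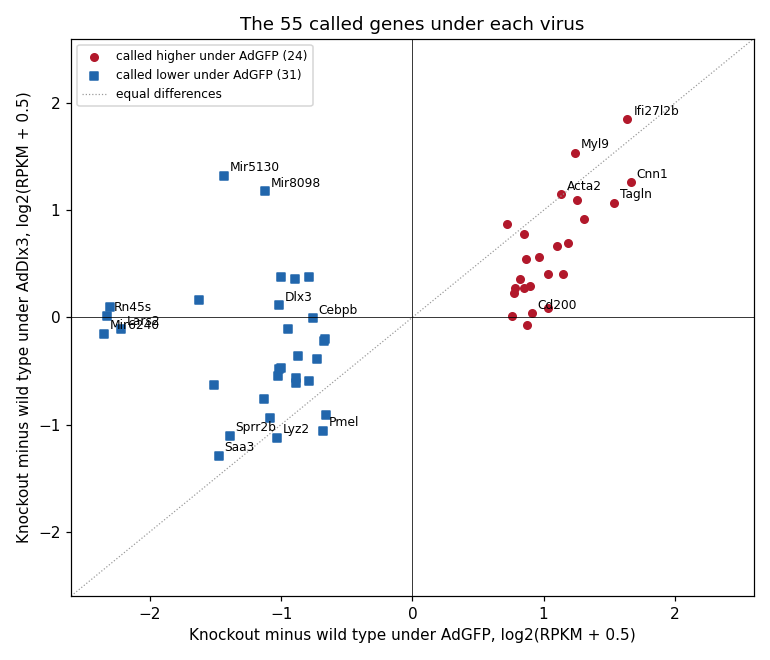
Knockout minus wild type under AdGFP (x axis) and under AdDlx3 (y axis), in log2(RPKM + 0.5), for the 55 genes called under AdGFP; red circles rose and blue squares fell under AdGFP, and the dotted line marks equal differences. Most points lie between the line and 0, Myl9, Ifi27l2b and Pmel lie beyond the line, and Rn45s, Lars2 and Mir6240 lie near 0 on the y axis.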

How the data were processed

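The authors deposited RPKM values for 26202 genes in 8 libraries, the count of alignments and the batch of each library in a sample sheet, and a table of their own comparisons with log2 group means, ratios, a signed fold change (a score that is the ratio or minus its inverse), p-values and q-values, per the file headers. Per the submitters' processing notes, which give no roles, the tools were TopHat2 2.1.1, bcl2fastq 2.20.0.422 and Partek, and the build mm10. Neither the annotation nor the use of strand is given in the sources used here, so overlapping antisense genes cannot be told apart.

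Genes with at least 1 RPKM in 2 of the 4 AdGFP libraries were kept. limma 3.58.1 in R 4.3.3, with an intensity trend and moderated variances, was fitted to log2(RPKM + 0.5) with genotype and replicate number as a block, which left 1 residual degree of freedom beside 10.7 prior ones. Adjusted p-values are Benjamini-Hochberg over all 11235 genes. Replicate numbers pair the libraries because the sample sheet puts number 1 in batch A and number 2 in batch B; the deviations of paired libraries from the mean of their group correlated at 0.796. The difference between viruses was fitted over 8 libraries with a block for each virus. The code was tested on simulated data.

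Dlx3 was named first, then the 15 largest rises and 15 largest falls among called genes without overlap, predicted gene models being only counted, and up to 4 members a list by p; a few genes that the rule names are not reported here. The members and lists were chosen with earlier results of these data known; the lists of actin and contraction, antimicrobial, ribosomal RNA, metallothionein, histone, ribosomal protein and respiratory chain genes were added after values were seen. Lists not described in the report had 0 calls or are shown only in the plot of list medians. Promoter and microRNA sequences are RefSeq's, on GRCm38.p6; promoters were found for 32 of the 55 called genes. Alternatives tried were the block, the libraries in the fit, pseudocount, filter, scaling, trend, robust moderation and leaving out each library.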

Additional observations from a re-analysis of the deposited data

How the results depend on the processing

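The number of calls depends on how the error is estimated, since 4 paired libraries leave 1 residual degree of freedom. The main 55 became 0 with no replicate block, 0 in the 8-library fit with no block or with one block, 0 with no filter on low values and 5 in the 8-library fit with a replicate block for each virus. Those 5, all shared with the 55, were Mir6240, Lars2, Mir6236, Rn45s and Ifi27l2b. There were 76 calls with a pseudocount of 0.1, 228 with 1, 243 with a mean of at least 5 RPKM, 60 with median-of-ratios scaling, 47 without the trend and 196 with robust moderation. The trend-free fit shared 42 of the 55 calls, robust moderation 44 and the mean of 5 RPKM 36. Leaving out a library was run in the 8-library fit with 1 block. There the lone library of a group is assumed to vary like the others. Its replicate difference is taken from the other groups, those with AdDlx3 included.

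For Dlx3 the difference stayed at -1.02 in 5 fits that end its call: no replicate block (limma adjusted p = 1 in the 4-library and the 8-library fit), one block (0.944), a block for each virus (0.228) and no filter (0.642). It lay between -1.45 and -0.59 with a library left out, and was not tested at a mean of 5 RPKM. The median of all genes was -0.0150 at a mean of 5 RPKM and between -0.0511 and 0.0248 with a library left out.

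All 55 genes kept their sign in every fit of all libraries in which they were tested. With a library left out, 30 of the 54 beside Dlx3 moved by over 1.5 times: 15 without knockout AdGFP replicate 1, 13 without knockout AdGFP replicate 2, 23 without wild-type AdGFP replicate 1 and 22 without wild-type AdGFP replicate 2. Without wild-type AdGFP replicate 1 and replicate 2 in turn, Tagln had 0.319 and 2.75, Vwa1 0.0345 and 1.76, Thbs1 0.0571 and 1.38, Wfdc2 0.0521 and 1.89, and Slpi -1.55 and -0.222. Rn45s stayed between -2.58 and -2.07. Ccl2 turned to 0.167 without knockout AdGFP replicate 1 and 0.364 without wild-type AdGFP replicate 2, in a range of -1.82 to 0.364 over the libraries left out. Akap12 turned to -0.174 without knockout AdGFP replicate 2 and -0.0834 without wild-type AdGFP replicate 1, in a range up to 1.72. Within AdGFP pairs neither gene turned: Ccl2 had -0.58 and -0.88, and Akap12 0.71 and 0.84. For Ccl2 and Akap12, replicate 2 was the higher library under AdGFP and the lower under AdDlx3, in both genotypes. The fit with a library left out holds 1 replicate block for both viruses. The cause was not tested beyond the construction of each fit. RPKM values give no read numbers, so no count test or counting interval was used.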
